A study of Sus scrofa with 8 samples.

Results

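Fatty acid desaturases and elongases were examined in the livers of 8 pigs, 4 Korean native pigs (KNP, an indigenous Korean breed, 7 months old) and 4 Yorkshire pigs (YS, a commercial breed, 6 months old). The genes considered were SCD, FADS1, FADS2, ELOVL5 and ELOVL6, and every probe set was taken whose array annotation gave exactly 1 of these symbols. This gave 8 of the 23999 probe sets that are not array controls, namely 1 for SCD, 1 for FADS1, 2 for FADS2 and 4 for ELOVL6. ELOVL5 had no probe set under its own single symbol in the annotation used, so it was not analysed here. Total RNA from the tip of the largest lobe was labelled with biotin and was measured on the Affymetrix porcine array with 1 array per animal. Both breeds were kept alike, per the labels, which name no treatment. KNP were a month older than YS throughout, so breed and age cannot be told apart in any difference below. The comparison asks which liver transcripts differ between the breeds.

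Mammals assemble saturated fatty acids in the cytosol and then modify them, together with fatty acids from the diet, in the membrane of the endoplasmic reticulum. ELOVL6 carries out the first step of the elongation of palmitate to stearate, and SCD (stearoyl-CoA desaturase) places a double bond in stearate and palmitate to give oleate and palmitoleate. FADS2 opens the desaturation of the essential fatty acids linoleic and alpha-linolenic acid, ELOVL5 lengthens the products, and FADS1 makes arachidonic and eicosapentaenoic acid. In rodent liver, transcription of these genes is raised by insulin, by the factor SREBP-1c and by liver X receptors, and is held down by dietary polyunsaturated fat. In the pig gene table of the Sscrofa11.1 assembly FADS2 and FADS1 lie side by side, with 0 other protein-coding genes between them.

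All 7 probe sets that could be tested had a lower mean log2(intensity + 16) in KNP than in YS, with differences from −2.76 to −0.74, and 0 of the 7 passed the test. The pattern behind these differences was the same in 7 of the 8 probe sets. There, 3 of the 4 KNP animals lay below every YS animal, and the fourth, KNP replicate 1, lay within or above the YS range. Values are the authors' intensities on a linear scale, and differences are KNP minus YS on that log2 scale, which understates the change of dim probe sets. They were tested with limma over 14399 probe sets at an adjusted p under 0.05. In that test 149 probe sets (1.03%) were called, 61 higher (0.424%) and 88 lower in KNP (0.611%), against 0 of the 7 desaturase and elongase probe sets. At an unadjusted p under 0.05, limma placed 6 of the 7 lower and 0 higher, where 8.06% of all tested probe sets were lower at that limit. The 7 stand for only 4 genes, and 4 of them are ELOVL6 probe sets read in the same animals, so they are not independent. The median difference was −1.29 over the 7 and −0.01 over all 14399. The members were chosen with earlier results of these data known, so these counts describe them and add no independent evidence.

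**Figure D1:**
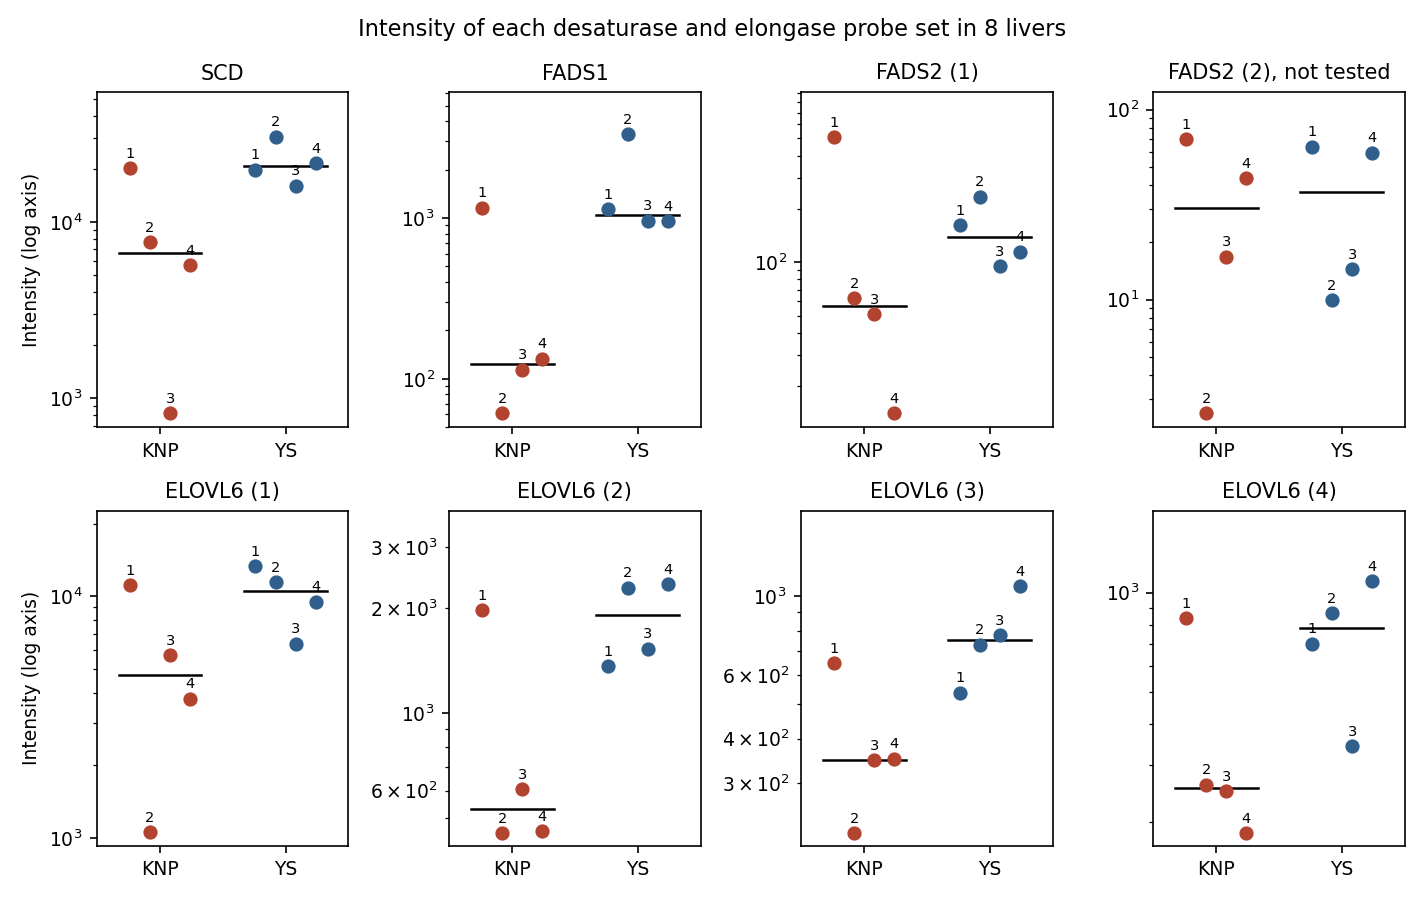
Intensity of each of the 8 probe sets on a log axis, with KNP animals in red on the left and YS animals in blue on the right, the replicate number at each point and a bar at the median of each breed. In every panel KNP replicate 1 is the highest KNP animal and lies above the lowest YS animal.

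SCD sets the balance of saturated to monounsaturated fat in the cell. Its probe set (Ssc.16159.1.S1_at) read 20274, 7665, 821 and 5687 in KNP replicates 1 to 4, against 19830, 30479, 16070 and 21589 in the YS replicates. The YS livers held a narrow band, whereas the KNP livers spread from the YS range down to the very low value of KNP replicate 3. On the log2 scale the SD was 1.93 in KNP and 0.38 in YS. The difference was −2.04 (SE 0.73, 95% interval −3.64 to −0.43), a 4.10-fold lower geometric mean of intensity + 16, and limma gave an adjusted p of 0.223. Its size rested to a large part on 1 animal, since without KNP replicate 3 the difference was −1.16 (adjusted p = 0.206 with limma), and without KNP replicate 1 it was −2.69 (adjusted p = 0.0934 with limma).

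ELOVL6 supplies the stearate on which SCD acts, and its 4 probe sets gave 4 readings of this gene in the same animals. The brightest (Ssc.1008.1.A1_at, ELOVL6 (1) in the plots) read 11138, 1057, 5724 and 3775 in KNP replicates 1 to 4, against 13312, 11453, 6377 and 9518 in the YS replicates. Here KNP replicate 2 was the lowest animal, not KNP replicate 3 as for SCD. The difference was −1.29 (SE 0.56, 95% interval −2.52 to −0.06, adjusted p = 0.309 with limma), and it shrank to −0.66 without KNP replicate 2. The second (Ssc.9392.3.A1_at) read 1978, 453, 606 and 459 in KNP, against 1367, 2296, 1534 and 2347 in YS. KNP replicates 2 to 4 lay close together there, and the difference was −1.35 (SE 0.41, 95% interval −2.26 to −0.44, adjusted p = 0.155 with limma). The third (Ssc.9392.1.S1_at) read 649, 218, 347 and 352 in KNP, against 537, 731, 776 and 1065 in YS. Its interval, −1.69 to −0.35 around −1.02, was the tightest of the 7 (SE 0.30, adjusted p = 0.142 with limma). The fourth (Ssc.9392.2.S1_at) read 837, 261, 249 and 186 in KNP, against 699, 867, 341 and 1085 in YS. It showed −1.07 (SE 0.45, 95% interval −2.06 to −0.09, adjusted p = 0.289 with limma). The 4 probe sets thus gave breed differences between −1.35 and −1.02, each with an interval that lay below 0 and an adjusted p above the threshold. The mean of the 4 gave −1.18 (adjusted p = 0.195 with limma over genes).

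FADS1 completes the route to the precursors of eicosanoids, the lipid signals made from these acids, and it had the largest difference of the 7 probe sets. Its probe set (Ssc.27614.1.S1_at) read 1160, 61.0, 114 and 133 in KNP replicates 1 to 4, against 1137, 3317, 964 and 956 in the YS replicates. Thus 3 KNP livers lay below the median intensity of their own arrays, whereas KNP replicate 1 stood second among the 8 animals. The difference was −2.76 (SE 0.72, 95% interval −4.35 to −1.17, adjusted p = 0.108 with limma), a 6.76-fold lower geometric mean of intensity + 16. The ratio of the breed medians, KNP over YS, was 0.117.

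FADS2 acts on the essential fatty acids before FADS1 does. Its brighter probe set (Ssc.29000.1.S1_at) read 510, 62.8, 51.0 and 14.0 in KNP replicates 1 to 4, against 162, 234, 95.1 and 114 in the YS replicates. KNP replicate 1 was the highest of all 8 animals and the other KNP animals were the 3 lowest. As a result the mean intensity was 159 ± 234 in KNP and 151 ± 61.8 in YS (SD, n = 4 per breed), while the medians were 56.9 in KNP and 138 in YS. The log2 difference was −0.74 (SE 0.71, 95% interval −2.30 to 0.82, adjusted p = 0.665 with limma), and it was −1.56 without KNP replicate 1 and −0.18 without KNP replicate 4. In both breeds 3 of the 4 animals read below the median of their array, and the size moved with the pseudocount, from −1.02 with 1 to −0.39 with 64. The other probe set of FADS2 (Ssc.29000.1.A1_at) lay below the array median in all 8 animals and was left out of the test with the dimmest 40% of probe sets. It read 69.9, 2.51, 16.8 and 43.5 in KNP, against 63.9, 9.90, 14.5 and 59.3 in YS. Only 1 KNP animal fell below the lowest YS animal in it, and with no filter on low values its difference was −0.15 (95% interval −1.34 to 1.04).

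**Figure D2:**
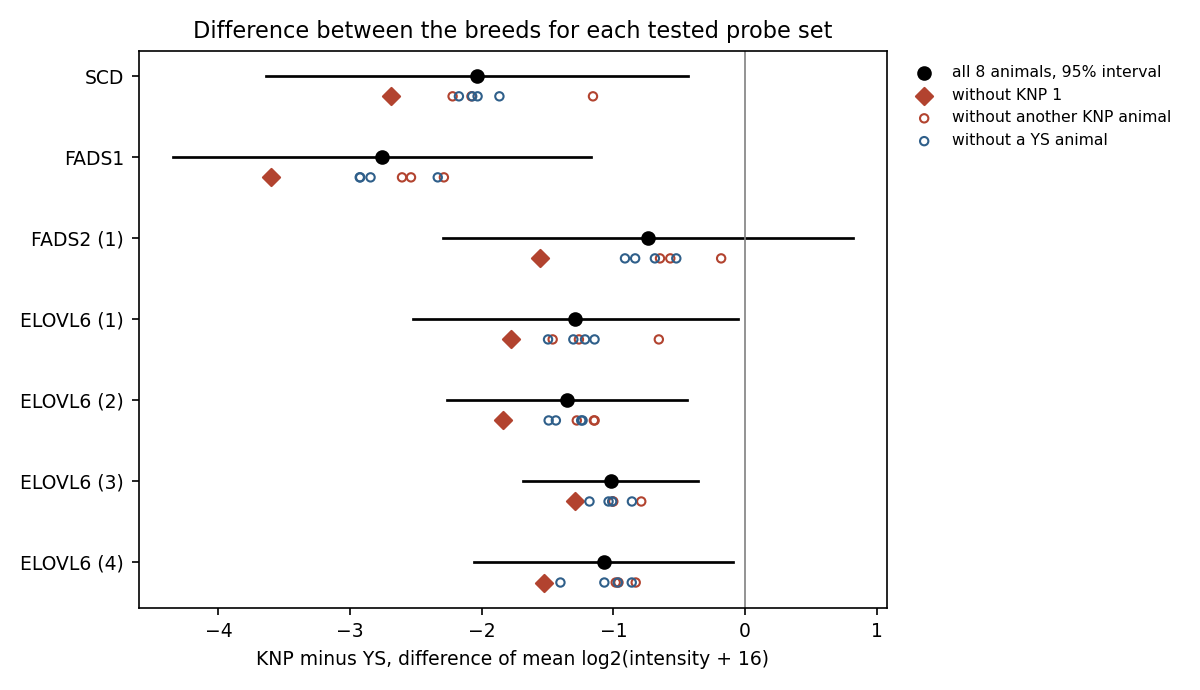
Difference between the breeds (KNP minus YS, mean log2(intensity + 16)) for the 7 tested probe sets, with the 95% interval from limma, and below each the difference when 1 animal is left out. All points lie below 0, the diamonds without KNP replicate 1 lie lowest in each row, and the interval of FADS2 (1) crosses 0.

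KNP replicate 1 was the highest KNP animal in 8 of 8 probe sets, above the lowest YS animal in 8 and above the YS median in 6. Over all tested probe sets it was the highest KNP animal in 18.1%. The other KNP animals all lay below the lowest YS animal in 7 of the 8 probe sets. Over all tested probe sets, 9.66% had exactly 3 KNP animals below every YS animal, and 15.3% had 3 or 4. None of the 8 probe sets separated the breeds without overlap, whereas 5.67% of all tested probe sets lay entirely lower in KNP. The log2 SD was larger in KNP than in YS in 8 of 8 probe sets, with medians over the 7 tested of 1.42 in KNP and 0.46 in YS. Over all tested probe sets the median SD was 0.32 in KNP and 0.27 in YS, and it was larger in KNP in 59.7%.

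Without KNP replicate 1, limma called 2 of the 7 probe sets lower, where 28 of 14399 (0.194%) were called lower and 53 (0.368%) in either direction. These were FADS1, at −3.60 (SE 0.42, adjusted p = 0.0154), and the second probe set of ELOVL6, at −1.84 (SE 0.24, adjusted p = 0.0154). The other 5 lay between −2.69 and −1.29, with adjusted p from 0.0729 to 0.166 in the same limma fit. This animal is a KNP pig by its label and was left out only as 1 of the 8 single omissions. As it was the highest KNP animal in 8 of 8 probe sets, its omission had to lower every difference. The 2 calls are therefore a description and no independent support. Leaving out any other animal called 0 of the 7.

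**Figure D3:**
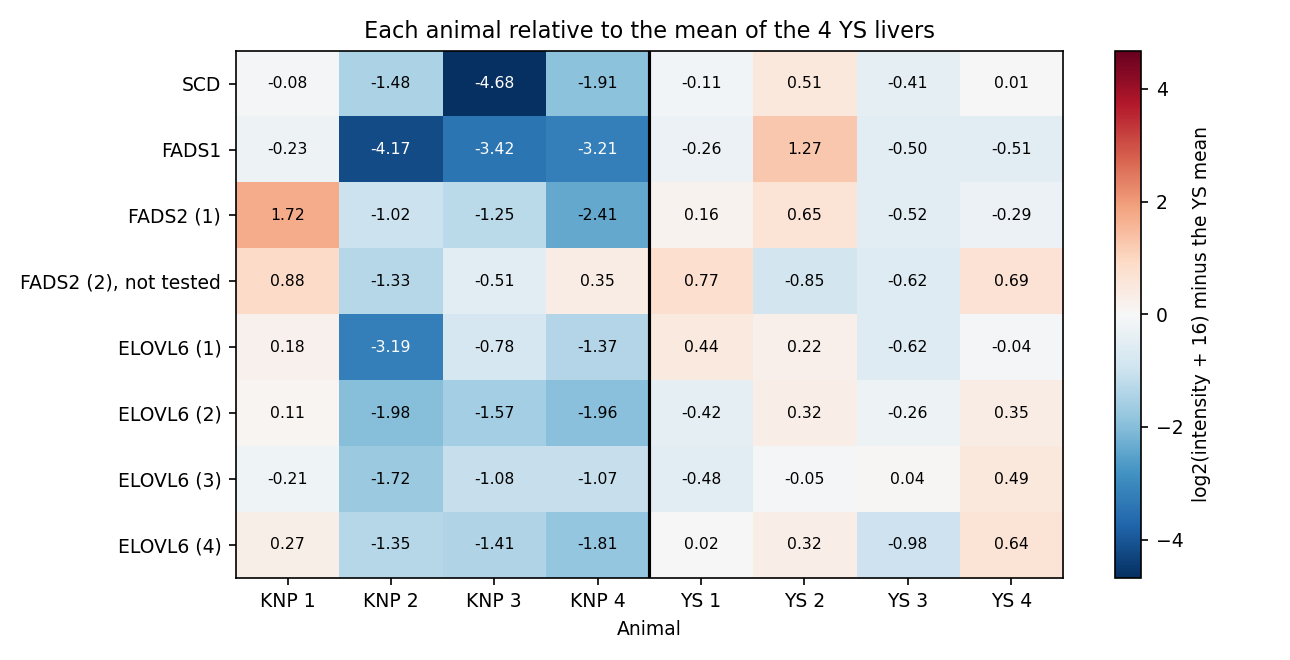
Each animal's log2(intensity + 16) minus the mean of the 4 YS animals, for the 8 probe sets in rows and the 8 animals in columns, KNP left of the line. KNP replicate 1 is near 0 or above it, and KNP replicates 2 to 4 are below 0 in every row except FADS2 (2), with the lowest cell, −4.68, for SCD in KNP replicate 3.

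The low KNP animals did not share one order. KNP replicate 3 was lowest of the 8 in SCD, KNP replicate 2 in FADS1 and in 3 of the ELOVL6 probe sets, where it took 1057, 453 and 218, and KNP replicate 4 in FADS2 (1) and the fourth ELOVL6 probe set. Once the mean of each breed was subtracted, Pearson's r over the 8 arrays was 0.88 between FADS1 and the second ELOVL6 probe set and 0.84 between FADS1 and FADS2 (1). It was 0.09 between SCD and the brightest ELOVL6 probe set. These values describe 8 arrays that share their scaling, and KNP replicate 1 is high in each of them.

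Whether 1 gene differed more between the breeds than another was tested within arrays, as the log2 value of one gene minus that of another, by a two-sided exact permutation test. With 4 animals per breed the smallest p it can give is 0.0286. FADS1 minus FADS2 (1) gave the largest difference between breeds, −2.02 (1.10 ± 0.96 in KNP and 3.12 ± 0.45 in YS, SD, n = 4 per breed, exact p = 0.0286, adjusted p = 0.171 over 6 pairs). FADS1 minus the brightest probe set of ELOVL6 gave −1.47 (exact p = 0.0857, adjusted p = 0.257). SCD minus FADS1 gave 0.72, SCD minus FADS2 −1.30, SCD minus ELOVL6 −0.75 and FADS2 minus ELOVL6 0.55, with adjusted exact p between 0.514 and 0.657. The sizes of all 6 changed when single animals were left out. FADS1 minus FADS2 (1) ran from −2.42 to −1.64 over the single omissions, and FADS1 minus ELOVL6 from −1.82 to −1.08. SCD minus FADS1 was 0.47 without YS replicate 2. Without KNP replicate 2, SCD minus FADS1 was 0.07 and FADS2 minus ELOVL6 0.01. Without KNP replicate 3, SCD minus FADS2 was −0.59 and SCD minus FADS1 1.38, and SCD minus ELOVL6 turned to 0.31. Without KNP replicate 2, SCD minus ELOVL6 was −1.57, and FADS2 minus ELOVL6 was 0.22 without KNP replicate 1 and 1.08 without KNP replicate 4. No pair passed after adjustment, and 1 of 6 was under 0.05 before it. A single pair at the smallest p of this permutation test is adjusted to 0.171 over 6 pairs, so it could not pass alone. No conclusion is therefore drawn from the failure of FADS1 minus FADS2 (1) to pass.

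Desaturation by SCD draws electrons from cytochrome b5 and its reductases, and other enzymes complete each round of elongation. Of 19 partner genes, 9 were on the array under their symbol and 6 were tested. None was called higher or lower, and 1 was lower at an unadjusted p under 0.05, with a list median of −0.19 against −0.02 over the 5423 genes tested. Among those genes 0.498% were called higher and 0.867% lower. CYB5A, a cytochrome b5 that hands electrons to SCD, read 20855, 15879, 26213 and 20934 in KNP, against 29475, 34488, 32640 and 30946 in YS. Its breeds did not overlap, yet it missed the threshold (log2 −0.62, SE 0.15, adjusted p = 0.0847 with limma). CYB5R1, a cytochrome b5 reductase, showed −0.33 (adjusted p = 0.589 with limma).

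Palmitate, the substrate of ELOVL6, is made from acetyl-CoA and reducing power. Of 9 genes of upstream fatty acid synthesis 6 were tested, 0 were called in either direction and 2 were lower at an unadjusted p under 0.05, with a median of −0.57. ACSS2, which makes acetyl-CoA from acetate, read 5378, 1397, 713 and 3941 in KNP, against 5559, 6405, 4332 and 5877 in YS (log2 −1.35, SE 0.51, adjusted p = 0.250 with limma). ME1, malic enzyme, a source of the reducing power for synthesis, read 363, 159, 49.4 and 109 in KNP, against 345, 515, 337 and 241 in YS (log2 −1.25, SE 0.45, adjusted p = 0.225 with limma). Both repeated the layout of the desaturases, with KNP replicate 1 inside the YS range and, except for this animal, every KNP value below every YS value. KNP replicate 1 was the highest KNP animal in 5 of the 6 genes of this list.

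Transcription factors and their partners set the level of the desaturase transcripts. Of 20 regulators 11 were tested, 0 were called, 1 was lower and 1 higher at an unadjusted p under 0.05, and the median was −0.09. NR1H3, the liver X receptor alpha that raises SREBP-1c and SCD in rodents, had 4 KNP values above all 4 YS values, at 1605, 1767, 1647 and 1718 in KNP, against 1222, 1573, 1324 and 1004 in YS (log2 0.41, SE 0.16, adjusted p = 0.268 with limma). HNF4A, a factor of hepatocyte identity, showed −0.48 (SE 0.19, adjusted p = 0.253 with limma) without overlap, and −0.08 with its other tested probe set.

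**Figure D4:**
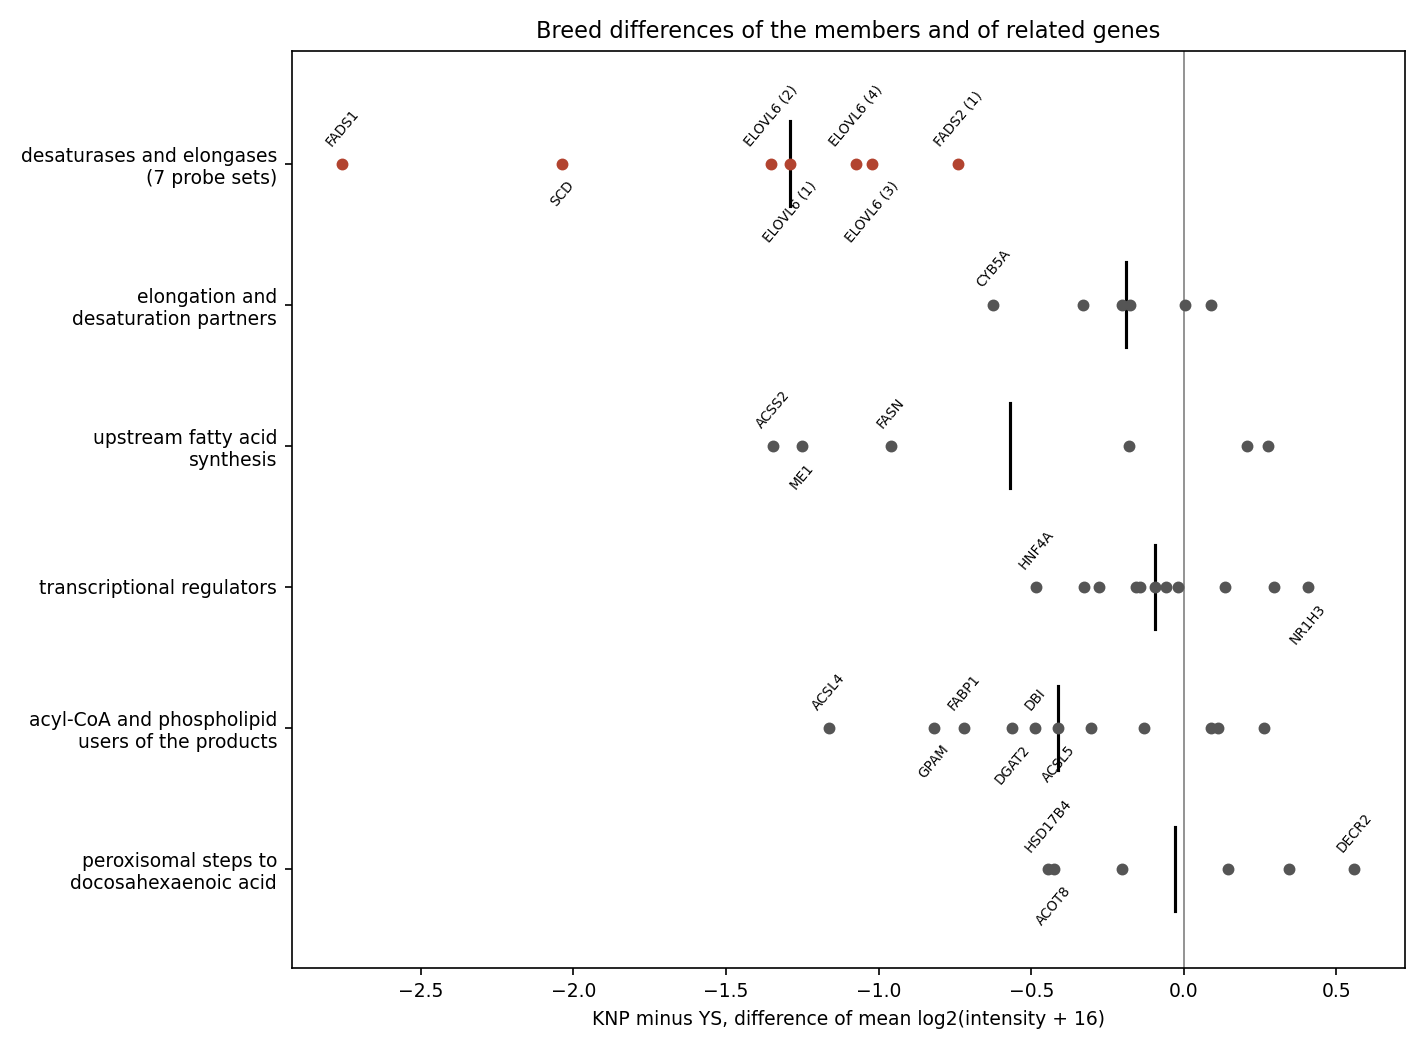
KNP minus YS in mean log2(intensity + 16) for the 7 tested desaturase and elongase probe sets (red) and for the brightest probe set of each tested gene in 5 related lists (grey), with a bar at each median. Names are given for the red points and for grey points at least 0.4 from 0. The red points have a median of −1.29, and the list medians run from −0.57 to −0.03, the last, of the peroxisomal list, being positive under the other scalings.

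Among genes that use the products, 11 of 19 were tested, 0 were called, 4 were lower at an unadjusted p under 0.05, and the median was −0.41 (−0.18 under quantile and −0.20 under cyclic loess normalization). ACSL4, an acyl-CoA synthetase with a preference for arachidonic acid, read 1656, 2130, 708 and 1500 in KNP, against 2665, 3376, 3732 and 2895 in YS. Its breeds did not overlap (log2 −1.16, SE 0.29, adjusted p = 0.0932 with limma). DBI, which binds acyl-CoA in the cytosol, read 15655, 16385, 16711 and 18366 in KNP, against 24600, 21419, 23401 and 24691 in YS, again without overlap (log2 −0.49, SE 0.11, adjusted p = 0.0744 with limma). Like CYB5A it is a bright probe set, and the part of array brightness in its difference was not tested. Of 10 genes of the peroxisomal steps that finish docosahexaenoic acid 6 were tested and 0 were called. The median of that list was −0.03 and turned positive under quantile, loess and median scaling, at 0.17, 0.16 and 0.05. DECR2, a peroxisomal reductase, showed 0.56 (adjusted p = 0.178 with limma) and 1.10 with its other tested probe set. HSD17B4, the peroxisomal multifunctional enzyme, showed −0.45 (adjusted p = 0.295 with limma).

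Each member was also set against all 5423 tested genes for the closest pattern over the 8 arrays with breed means subtracted. For SCD the 3 nearest were RRM1 (r = 0.99), a subunit of ribonucleotide reductase, ECI1 (0.99), an isomerase of the breakdown of unsaturated fatty acids in mitochondria, and FASN (0.98), fatty acid synthase. FASN read 14608, 5150, 763 and 6262 in KNP, against 8871, 11459, 6778 and 7622 in YS, so KNP replicate 1 was highest and KNP replicate 3 lowest of all 8. Its difference was −0.96 (SE 0.68, adjusted p = 0.544 with limma) in this brightest probe set, while its other tested probe sets gave 0.55 and 0.40. The closest to FADS1 were FAH (0.96), an enzyme of tyrosine breakdown, PARK7 (0.96) and CST3 (0.95). FADS2 (1) was closest to FAM149A (0.96), FAM162A (0.94) and HPD (0.92), another enzyme of tyrosine breakdown, which was itself called higher in KNP (log2 0.93, adjusted p = 0.0274 with limma). The brightest ELOVL6 probe set was closest to NSFL1C (0.99), AQP11 (0.99) and PEPD (0.98). These r values are the highest of 5423 over only 8 arrays and are given as a description.

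The arrays and cell markers also differed between the breeds. Hepatocyte markers were well measured in all animals, with 6 of 9 tested called lower in KNP and 0 higher, and a summed intensity of 295548 to 335156 in KNP, against 467652 to 504459 in YS. KNP replicate 1 had the lowest of these sums. The median of the hepatocyte list was −0.60 as deposited and −0.03 after quantile normalization. The 7 tested members had differences from −2.71 to −0.60 under quantile normalization, and 0 of the 7 were called. Of 7 adipocyte markers on the array, 6 fell among the dimmest probe sets that were not tested, ADIPOQ, LEP and FABP4 included. None of their values was at exactly 0. The list summed to 976 to 1447 in KNP, against 1084 to 1469 in YS. Most of each sum came from AGPAT2, the 1 tested, at 701 to 1058 in KNP and 660 to 914 in YS. LEP read 24.1, 73.2, 15.9 and 31.7 in KNP, below its YS values of 77.9, 215, 186 and 134. The other adipocyte markers on the array overlapped between the breeds. Of 7 Kupffer cell and macrophage markers 6 were tested and 0 called, with a median of 0.52 and a sum of 15857 to 20879 in KNP, against 8950 to 18789 in YS. The stellate, endothelial, cholangiocyte, erythroid and T and NK cell lists held 0 called genes among 4, 4, 1, 2 and 4 tested. The spiked-in controls had a geometric mean of 4149 ± 651 in KNP and 7267 ± 1045 in YS (SD, n = 4 per breed, exact permutation p = 0.0286, the smallest possible). For a first actin control, the signal at the 3′ end over that at the 5′ end was 4.83 ± 1.88 in KNP and 10.5 ± 1.45 in YS (SD, n = 4 per breed, exact permutation p = 0.0286). There KNP replicate 1 had a ratio of 3.80, on the KNP side of this gap, and KNP replicate 2 a lower one of 2.68. A second actin control did not show the gap, at 0.311 ± 0.197 in KNP and 0.245 ± 0.183 in YS (SD, exact permutation p = 0.686). The GAPDH control gave 3.21 ± 0.707 in KNP and 4.33 ± 0.765 in YS, with overlapping breeds (SD, exact permutation p = 0.114). The part of RNA quality, of array brightness and of cell mixture in the breed differences was not tested, and in whole liver fewer cells of a type and less RNA per cell cannot be told apart.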

How the data were processed

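Liver RNA of 4 KNP and 4 YS pigs was measured with 1 array each. The authors deposited linear intensity values, 1 per probe set and array, for which the submitters' processing notes name GCOS 1.3. How GCOS was set is not stated in the labels. From the 24123 probe sets, 124 controls were left out. Values were taken as log2(intensity + 16). Array medians differed by 0.22 on this scale, under the limit of 0.5, so no further scaling was applied. The dimmest 40% by mean log2 value were left out, and 14399 were tested with limma 3.58.1 in R 4.3.3 (lmFit, eBayes with an intensity trend, breed as the only term, Benjamini-Hochberg adjustment over all tested), after the fit had been tested on simulated data. The number of arrays limits the precision. The labels call the animals biological replicates, and the 4 replicate numbers name different animals in each breed. Deviations of same-numbered animals correlated between −0.02 and 0.05, so they were not paired.

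Probe sets were named through the array annotation, which gives 1 symbol for 10099 probe sets and several for 198. The desaturase and elongase symbols with a probe set all matched the pig gene table through their gene identifiers. In lists a gene is represented by its probe set with the highest mean, and 90 of 134 list entries were on the array. The genes named are all members, from each related list those called or else the 2 with the smallest p, and for each member the 3 genes of closest pattern. Members, lists, tests and alternatives were chosen with earlier results of these data known. The alternatives were a pseudocount of 1 or 64, quantile, median and cyclic loess scaling, a filter of 0 or 60%, eBayes without the trend, weights per array, the replicate number as a block, single animals left out, and a gene's probe sets averaged. Of the 10 planned pairs of genes 6 could be tested.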

Additional observations from a re-analysis of the deposited data

Results flagged for a closer look

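In FADS1, YS replicate 2 read 3317 against 956 to 1137 in the other YS animals. Its gap to the nearest of them took up 0.861 of the range of the YS group on the log2 scale, above Dixon's 95% critical value for 4 samples. Of 16 groups checked (8 probe sets in 2 breeds) this was 1 past the value, and chance flags about 1 in 20. Without this animal the FADS1 difference was −2.33, and it was −2.76 with all 8. In the KNP group the gap of KNP replicate 1 reached 0.757 in FADS1, 0.805 in the second ELOVL6 probe set and 0.781 in the fourth, all under the critical value.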

How the results depend on the processing

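The 7 tested members had a difference below 0 under every alternative in which they were fitted, and 0 of 7 were called except without KNP replicate 1, so that the count over single omissions ran from 0 to 2. FADS1 ran from −3.60 to −2.29 over the omissions and passed once (adjusted p = 0.0154 with limma). SCD ran from −2.69 to −1.16 over the omissions, ELOVL6 (1) from −1.78 to −0.66 and FADS2 (1) from −1.56 to −0.18. SCD minus ELOVL6, −0.75 as reported, ran from −1.57 to 0.31 over the omissions and turned positive without KNP replicate 3. The 149 calls over all probe sets, 61 higher and 88 lower, became 14 under quantile normalization and 14 under cyclic loess, each with 10 higher and 4 lower, 95 with median centring (57 higher, 38 lower), 35 with no filter, 13 with no intensity trend and 8 to 119 with 1 animal left out. They became 8 with the replicate block, which called 0 members (FADS1 adjusted p = 0.168 with limma). Other alternatives kept the count near 149 or raised it. It was 140 with a pseudocount of 1, 157 with a pseudocount of 64, 163 with the lower 60% left out and 180 with array weights. The causes were not tested. Array values near or below the array median, as in FADS2, limit what can be shown for dim probe sets.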

Other observations

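A further gene with a desaturase name, FADS6, was described after its values were seen. Its 3 probe sets gave differences of −0.30, 0.03 and 0.10 between KNP and YS, with adjusted p from 0.740 to 0.970 in limma. The brightest read 6558, 1737, 2447 and 5111 in KNP replicates 1 to 4, against 5165, 5115, 3570 and 3539 in the YS replicates. KNP replicate 1 was the highest of all 8 animals in it and KNP replicate 2 the lowest.

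KNP replicate 1 was also the highest of all 8 animals in GPAM and DGAT2, enzymes of triglyceride assembly named after their values were seen. GPAM read 1403, 175, 474 and 787 in KNP, against 832, 1166, 1043 and 957 in YS. DGAT2 read 5632, 1104, 1731 and 2603 in KNP, against 3804, 4316, 2551 and 3221 in YS. KNP replicate 1 was the highest of the 8 animals in 3 of the 6 tested genes of upstream fatty acid synthesis and in 7 of the 40 tested genes of all 5 related lists, against 8.79% of all tested probe sets. Differences between breeds in these genes did not pass the limma threshold.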
